A study of Mus musculus with 14 samples.

Results

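RNA levels of 10 genes of matrix breakdown were followed in the outer layer of the fetal mouse heart, the 6 matrix metalloproteinases Mmp2, Mmp11, Mmp14, Mmp15, Mmp16 and Mmp23 and the 4 inhibitors Timp1, Timp2, Timp3 and Reck. They were chosen by name from the 15894 genes of the expression table, and every one of the 10 was listed there. Poly(A) RNA came from dissected epicardium and subepicardium of untreated hearts at E16.5, with 2 hearts to a library. Ventral and dorsal tissue of female hearts gave 3 libraries each (pools 1 to 3), and male hearts gave 4 ventral libraries (pools 4 to 7) and 3 dorsal ones (pools 4 to 6). One further male library of pool 7 is dorsal by its title and ventral by its tissue entry, so it entered no comparison. Each group carries the label Tbx18Cre, a Cre driver under the control of Tbx18, a gene of the epicardium; no deleted allele is named, and the study calls the hearts wild type. Because every female library belongs to pools 1 to 3 and every male one to pools 4 to 7, sex and the series of pools cannot be told apart.

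Matrix metalloproteinases are zinc-dependent endopeptidases that are made as inactive precursors and cut collagens, laminins, proteoglycans and growth factor precursors once their propeptide is removed. Most are secreted, while the membrane-type enzymes stay anchored in the cell surface. The tissue inhibitors of metalloproteinases, encoded by the Timp genes, block the active enzymes by direct binding, and Reck encodes a membrane-anchored glycoprotein that restrains several of them. In the developing heart the epicardium lays down and remodels the subepicardial matrix through which epicardium-derived cells, coronary vessels and lymphatic vessels spread.

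What the 6 proteases share is the zinc site of the catalytic domain, where 3 histidines hold the zinc ion and a glutamate takes part in cleavage. The coding sequence of that site is shown for each because it is the feature that defines them as metalloproteinases. It is printed 5′ to 3′ in the coding sense from GRCm38 and spans 11 codons (33 bases), with the codons of the 3 histidines and of the glutamate in capitals.
Mmp2, chr8:92839279-92839311, plus strand, coding exon 8: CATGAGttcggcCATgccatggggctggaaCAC
Mmp11, chr10:75926931-75926963, minus strand, coding exon 5: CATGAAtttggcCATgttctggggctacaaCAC
Mmp14, chr14:54437627-54437659, plus strand, coding exon 5: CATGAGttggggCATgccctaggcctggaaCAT
Mmp15, chr8:95368585-95368617, plus strand, coding exon 5: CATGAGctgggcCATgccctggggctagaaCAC
Mmp16, chr4:18051748-18051780, plus strand, coding exon 5: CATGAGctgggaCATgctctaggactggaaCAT
Mmp23, chr4:155651528-155651560, minus strand, coding exon 5: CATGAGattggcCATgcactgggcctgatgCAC
Between pairs of these stretches 69.7% to 87.9% of bases were equal, the highest share being that of Mmp2 with Mmp15 and of Mmp14 with Mmp16. A search of the 13803 listed genes with a coding sequence in the annotation also asked for the glycine that these stretches share. The same spacing of 3 histidines, a glutamate and this glycine was encoded by 39 (0.283%), the 6 proteases among them. Mmp2, Mmp15, Mmp23, Timp1, Timp2 and Reck held no 60-base window, the length of the reads, that another annotated gene also holds. The shares were 0.6% for Mmp14 and 0.1% for Mmp16. For Timp3 20.9% of windows were shared, mostly with Syn3, an opposite-strand gene across the same locus, and for Mmp11 3.34% were shared with Chchd10 on the opposite strand. Whether reads were assigned by strand was not given in the sources used here, so Timp3 and Mmp11 may hold reads of those genes. The shares count windows and not reads, and the number of such reads was not tested.

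Depth ranged from 13918995 to 25221314 reads on listed genes, and 3 reads, taken as the floor of detection, corresponded to 0.116 to 0.217 normalized CPM. The least covered value among the 10 genes, that of Reck in a male dorsal library, rested on 116 reads. Epicardium markers were present in every library, and so were cardiomyocyte markers, so the dissected layer held myocardium as well. The summed level of 10 epicardium markers was 1829 to 2948 normalized CPM in female ventral libraries, 321 to 664 in female dorsal, 2181 to 6482 in male ventral and 1717 to 4543 in male dorsal ones. One library stood apart in its markers. The male ventral library of pool 7 had 169 normalized CPM over 6 blood endothelium markers, against 711 to 1195 in the other 13, and 291 over 3 erythroid markers, against 33.6 to 122. It also had the lowest sums of cardiomyocyte (17476) and of smooth muscle and pericyte markers (460).

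Ventral against dorsal epicardium was the regional question of the study. In pools 1 to 3, Mmp23, Timp1, Timp2, Reck and Mmp15 were higher in ventral than in dorsal tissue, with ratios of group means of 3.27, 2.52, 2.25, 3.31 and 1.56, and none of the 10 was called lower. Over all pools Mmp23, Timp2, Reck, Mmp14 and Timp1 were higher ventrally. In pools 4 to 7 no gene of the table passed the threshold, and the largest changes among the 10 were again upward in ventral tissue, in Mmp14, Reck, Timp2 and Mmp23, although that of Reck was -0.014 with cardiomyocyte markers as a covariate. Timp3, an inhibitor bound to the matrix, had ratios of ventral to dorsal means of 0.978 and 0.986 in the 2 series. A gene was called when limma gave an adjusted p under 0.05 over all genes tested; changes are differences of log2(normalized CPM + 1), which understate the change of low genes. In pools 1 to 3, 5 of the 10 were called, against 27.8% of the 14411 genes tested in either direction and 14.5% in the ventral direction. Well expressed genes were called more often. With a mean of at least 10 normalized CPM, which all 10 had, 3522 of 9518 genes were called, 1626 of them higher ventrally. The median change of all 10 was 0.67, beside 0.01 over all genes tested. In bulk tissue a smaller share of one cell type and less RNA per cell cannot be told apart.

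**Figure D1:**
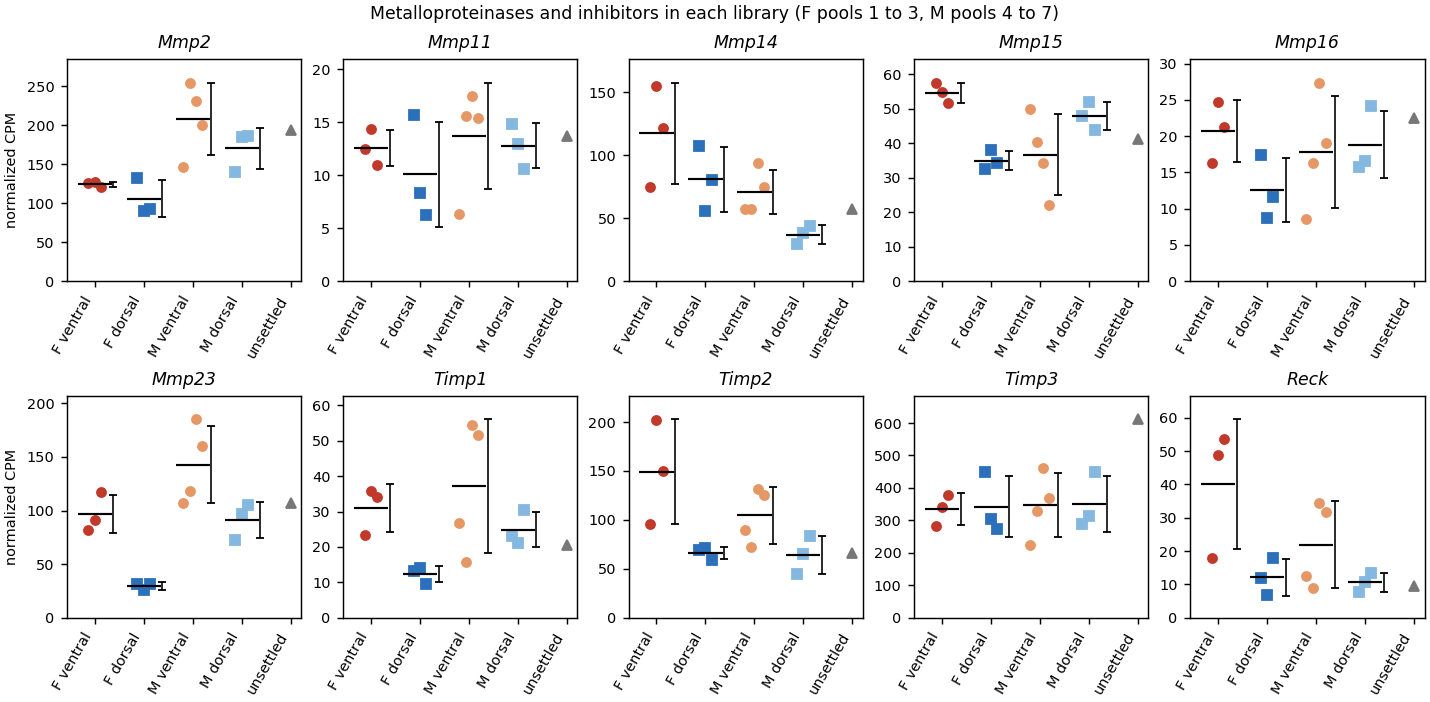
Normalized CPM (linear axis from 0) of each gene in each of the 14 libraries, by sex and region. Points are libraries, the horizontal line is the group mean and the bar beside it is ± 1 SD. The triangle is the library of pool 7 without a settled region. Female ventral libraries of Mmp15, Mmp23, Timp1, Timp2 and Reck lie above all female dorsal ones, and Timp3 shows no such step.

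Mmp14, Mmp2 and Timp2 belong to one activation route. Gene positions here and in the following paragraphs are those of GRCm38. Mmp14 (ENSMUSG00000000957, chr14:54431612-54445364, plus strand) encodes the first membrane-type metalloproteinase, a collagenase of the cell surface, and its protein activates the precursor of the gelatinase Mmp2 while Timp2 bridges the pair. Mmp14 read 75.2, 155 and 122 normalized CPM in the ventral libraries of pools 1, 2 and 3 and 107, 55.8 and 80.2 in the dorsal ones. It read 57.2, 57.1, 93.6 and 75.2 in the ventral libraries of pools 4 to 7 and 29.3, 38.1 and 44.0 in the dorsal ones of pools 4 to 6. The female groups overlap, with pool 1 lower ventrally than dorsally, while every male ventral library exceeds every male dorsal one. Its ventral minus dorsal change was 0.52 (SE 0.286, adjusted p = 0.204) in pools 1 to 3 and 0.90 (SE 0.217, adjusted p = 0.285) in pools 4 to 7. Over all pools it was 0.72 (SE 0.197, adjusted p = 0.0224). The all-pool call was lost without the female ventral library of pool 2 (adjusted p = 0.0580), without the female dorsal one of pool 2 (0.0582) and without the male dorsal one of pool 4 (0.0516), within a range of 0.0133 to 0.338 over its alternatives. It was called in pools 1 to 3 without the ventral library of pool 1 (0.80, adjusted p = 0.0469).

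Mmp2 (ENSMUSG00000031740, chr8:92827291-92853420, plus strand), a secreted gelatinase, read 125, 127 and 121 normalized CPM in ventral pools 1 to 3 and 133, 90.5 and 93.2 in the dorsal ones. In the male hearts it read 147, 254, 231 and 200.4 ventrally and 140.0, 184 and 186 dorsally. Ventral and dorsal values overlap in both series, and the male libraries are all higher than the female ones. The regional change was 0.26 (SE 0.164, adjusted p = 0.269) in pools 1 to 3, 0.27 (SE 0.200, adjusted p = 0.551) in pools 4 to 7 and 0.26 (SE 0.136, adjusted p = 0.180) over all pools. Without the female dorsal library of pool 1, the highest of its group, the change in pools 1 to 3 was 0.43 with an adjusted p of 0.0465.

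Timp2 (ENSMUSG00000017466, chr11:118301069-118355740, minus strand), which both inhibits metalloproteinases and takes part in Mmp2 activation, read 95.7, 202 and 149.8 normalized CPM in ventral pools 1 to 3 and 68.9, 71.0 and 59.0 in the dorsal ones. Male ventral libraries read 89.3, 71.9, 131 and 125 and male dorsal ones 44.4, 64.7 and 83.9. All female ventral values exceed the female dorsal ones, and the male groups overlap through the ventral library of pool 5 and the dorsal one of pool 6. The change was 1.10 (SE 0.238, adjusted p = 0.00894) in pools 1 to 3, 0.70 (SE 0.260, adjusted p = 0.309) in pools 4 to 7 and 0.88 (SE 0.198, adjusted p = 0.0114) over all pools. Whichever library was left out, Timp2 stayed called in pools 1 to 3 and over all pools.

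The other membrane-type enzymes were Mmp15 and Mmp16. Mmp15 (ENSMUSG00000031790, chr8:95352268-95375080, plus strand) read 57.4, 54.8 and 51.6 normalized CPM in ventral pools 1 to 3 and 32.6, 37.98 and 34.3 in the dorsal ones. In the male hearts the ventral libraries read 49.996, 40.5, 34.3 and 22.1 and the dorsal ones 47.9, 51.9 and 43.7. The 2 female groups are tight and separate, while the male ventral values spread downward from the male dorsal ones and reach their lowest in the library of pool 7 that had few endothelial markers. The change was 0.63 (SE 0.146, adjusted p = 0.0122) in pools 1 to 3, and -0.43 (SE 0.250, adjusted p = 0.453) in pools 4 to 7, where it was -0.21 (adjusted p = 0.731) without that library. The call in pools 1 to 3 did not hold after removal of a trend on GC content and length (0.41, adjusted p = 0.0512), within a range of 0.00773 to 0.788 over the alternatives.

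Mmp16 (ENSMUSG00000028226, chr4:17852893-18119145, plus strand) read 16.3, 24.8 and 21.3 normalized CPM in ventral pools 1 to 3 and 17.4, 8.74 and 11.7 in the dorsal ones. The male ventral libraries ran from 8.52 to 27.3 with a median of 17.7, and the male dorsal ones from 15.7 to 24.1. Groups overlap in both series. The change was 0.71 (SE 0.280, adjusted p = 0.0869) in pools 1 to 3 and -0.16 (SE 0.349, adjusted p = 0.864) in pools 4 to 7. Without the female dorsal library of pool 1 it was called in pools 1 to 3 (0.95, adjusted p = 0.0407).

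Mmp23 (ENSMUSG00000029061, chr4:155650655-155653384, minus strand), a metalloproteinase held in the membrane by an amino-terminal anchor until it is cut free, had the largest ratio of ventral to dorsal means of the 6 proteases in pools 1 to 3. It read 82.3, 91.1 and 117 normalized CPM in ventral pools 1 to 3 and 31.3, 25.7 and 32.0 in the dorsal ones. Male ventral libraries read 107, 119, 185 and 160.2, and male dorsal ones 72.4, 96.4 and 105. Ventral libraries exceed dorsal ones in both series, by a wide gap in the female hearts and narrowly in the male hearts. The change was 1.66 (SE 0.174, adjusted p = 0.000471) in pools 1 to 3, 0.62 (SE 0.213, adjusted p = 0.303) in pools 4 to 7 and 1.11 (SE 0.196, adjusted p = 0.00685) over all pools. It was called in pools 1 to 3 and over all pools whichever library was left out.

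Mmp11 (ENSMUSG00000000901, chr10:75923222-75936496, minus strand), stromelysin-3, is a secreted enzyme that is activated inside the cell. It read 12.5, 14.4 and 10.9 normalized CPM in ventral pools 1 to 3 and 15.7, 8.36 and 6.21 in the dorsal ones, and between 6.32 and 17.5 in the male libraries. The highest and the lowest female values are both dorsal, and the lowest male value, in pool 4, is ventral. Its change was 0.38 (SE 0.325, adjusted p = 0.416) in pools 1 to 3 and 0.02 (SE 0.341, adjusted p = 0.987) in pools 4 to 7.

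Among the inhibitors, Timp1 (ENSMUSG00000001131, chrX:20870166-20874735, plus strand), a secreted inhibitor of most soluble metalloproteinases, read 23.3, 35.8 and 34.2 normalized CPM in ventral pools 1 to 3 and 13.3, 14.1 and 9.66 in the dorsal ones. The male ventral libraries read 26.9, 15.9, 54.4 and 51.5 and the male dorsal ones 23.2, 21.1 and 30.4. Female ventral values all exceed the female dorsal ones; in male hearts pools 6 and 7 are high ventrally and pool 5 is below every dorsal library. The change was 1.26 (SE 0.239, adjusted p = 0.00517) in pools 1 to 3, 0.42 (SE 0.383, adjusted p = 0.633; -0.24 with the cardiomyocyte marker covariate) in pools 4 to 7 and 0.81 (SE 0.268, adjusted p = 0.0467) over all pools. The all-pool call was lost when any of 10 of the 13 libraries was left out (adjusted p up to 0.107). It held under 5 of the 12 alternative settings, where the adjusted p reached 0.975. Settings that lost it included the replicate block (0.0639) and quantile normalization (0.0579). The call in pools 1 to 3 held without each library.

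Timp3 (ENSMUSG00000020044, chr10:86300372-86349506, plus strand), which binds to the matrix and also inhibits sheddases of the ADAM family, was the most abundant of the 10 by reads. It read 282, 340.1 and 379.8 normalized CPM in ventral pools 1 to 3 and 448, 304 and 272 in the dorsal ones. Male ventral libraries read 224, 330.3, 462 and 369.7 and male dorsal ones 290.3, 313 and 450.4. The groups overlap throughout, and the change was -0.01 (SE 0.202, adjusted p = 0.979) in pools 1 to 3 and -0.04 (SE 0.245, adjusted p = 0.955) in pools 4 to 7. The library without a settled region had the highest value of the 14, at 611.

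Reck (ENSMUSG00000028476, chr4:43875530-43944806, plus strand) read 17.9, 48.9 and 53.5 normalized CPM in ventral pools 1 to 3 and 11.8, 6.78 and 17.8 in the dorsal ones. Male ventral libraries read 12.7, 9.08, 34.4 and 31.8, and male dorsal ones 7.77, 10.6 and 13.5. In each series 2 ventral libraries stood well above the rest, those of pools 2 and 3 and those of pools 6 and 7. The lowest female ventral value, 17.9, barely exceeds the highest dorsal one, 17.8. The change was 1.59 (SE 0.429, adjusted p = 0.0223) in pools 1 to 3, 0.81 (SE 0.444, adjusted p = 0.427; -0.014 with the cardiomyocyte marker covariate) in pools 4 to 7 and 1.18 (SE 0.351, adjusted p = 0.0307) over all pools. It was not called in pools 1 to 3 without the ventral library of pool 2 (adjusted p = 0.0936), the ventral one of pool 3 (0.0818) or the dorsal one of pool 2 (0.0740), and over its alternatives the adjusted p ran from 0.00413 to 0.982. Over all pools the call was lost without any one of 7 of the 13 libraries.

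**Figure D2:**
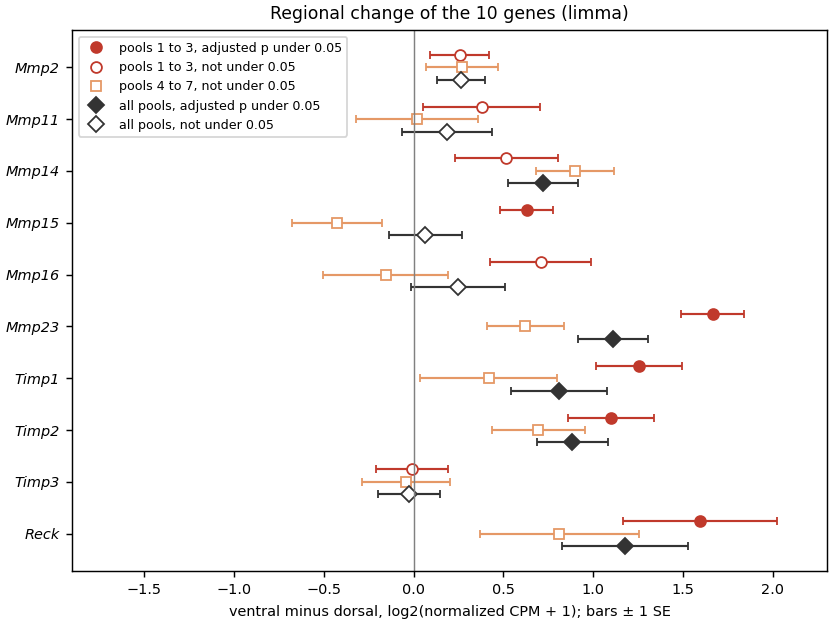
Ventral minus dorsal change of each gene on the log2(normalized CPM + 1) scale (horizontal axis, bars ± 1 SE of the limma fit), for pools 1 to 3, pools 4 to 7 and all pools together. Filled symbols have an adjusted p under 0.05. Mmp23 (1.66) and Reck (1.59) changed most in pools 1 to 3, the points of Timp3 lie on 0, and no symbol of pools 4 to 7 is filled.

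Non-overlap of the libraries gave a like picture. In pools 1 to 3 every ventral library lay above every dorsal one for 5 of the 10 genes, beside 23.2% of genes tested. In pools 4 to 7 that held for 2 of the 10, Mmp14 and Mmp23, beside 6.18%. No gene of the whole table was called in pools 4 to 7 by limma (0 of 14917) or by edgeR on the recovered reads. With limma 14% of genes (2083) had an unadjusted p under 0.05, and with edgeR 1802 genes did. Of the 10 genes 3 did, Mmp14, Mmp23 and Timp2. With the replicate number as a block, which compares ventral with dorsal tissue inside a numbered pool, 76 genes of pools 4 to 7 were called, Mmp14 among them (0.86, SE 0.174, adjusted p = 0.0354). Over all pools 18.9% of the 15772 genes tested were called and 9.8% in the ventral direction, beside 5 of the 10. Among genes with a mean of at least 10 normalized CPM, 2668 of 9597 were called there, 1152 of them higher ventrally.

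Whether the regional change differed between the series was tested as an interaction. The change was smaller in pools 4 to 7 than in pools 1 to 3 by 1.04 for Mmp23 (difference -1.04, SE 0.292, adjusted p = 0.0775) and turned for Mmp15 (difference -1.06, SE 0.307, adjusted p = 0.0896). None of the 10 was called, beside 2.73% of the 15772 genes, and these 2 had an unadjusted p under 0.05, beside 15.4%. With the replicate block 804 genes were called and Mmp23 was one of them (-1.11, SE 0.225, adjusted p = 0.0106), within a range of 0.00238 to 0.308 over its alternatives. Mmp15 was called without the male ventral library of pool 4 (adjusted p = 0.0309) and ranged from 0.0221 to 0.193. For the other 8 genes a difference between the series was not detected, with SEs of 0.275 to 0.692 on the log2 scale.

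Read pool by pool, the ventral level exceeded the dorsal one in 6 of 6 numbered pools for Mmp23, by 1.23 to 3.66 times, and for Timp2, by 1.11 to 2.85 times. It did so in 5 of 6 for Mmp2, Mmp14, Timp1 and Reck. The single pool with the opposite order was pool 1 for Mmp2 and Mmp14 and pool 5 for Timp1 and Reck. Mmp11, Mmp15 and Timp3 were higher ventrally in 4 of 6 pools and Mmp16 in 3. Reck had the widest span, from 0.856 times in pool 5 to 7.22 times in pool 2. The share of all genes with such an order in 6, 5 or 4 of 6 pools was not counted. The counts therefore describe these genes and do not set them apart from the rest of the table.

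**Figure D3:**
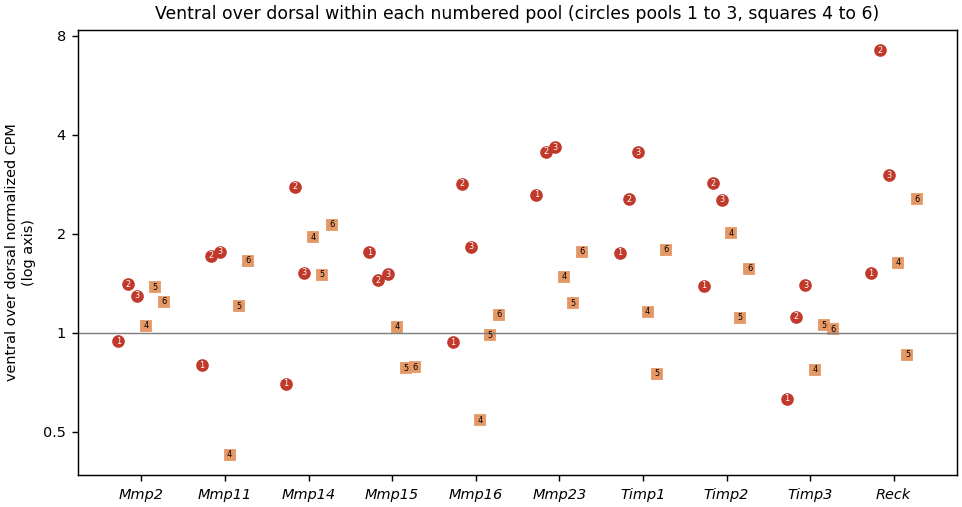
Ventral over dorsal normalized CPM within each numbered pool (log axis; the line is a ratio of 1), with circles for pools 1 to 3 and squares for pools 4 to 6. Mmp23 and Timp2 lie above 1 in all 6 pools, and the 3 highest values of Mmp15 are those of pools 1 to 3. Whether such an order is common among all genes was not tested.

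The start regions of genes that were higher ventrally both in pools 1 to 3 and over all pools are shown for Mmp23, Timp1 and Reck (that of Timp2 overlaps an annotated exon), as the 200 bases before the RefSeq start site (GRCm38.p6), 5′ to 3′ on the strand of the gene. Capitals mark the GC box GGGCGG or its reverse complement.
Mmp23, chr4:155653385-155653584, minus strand, start site 1: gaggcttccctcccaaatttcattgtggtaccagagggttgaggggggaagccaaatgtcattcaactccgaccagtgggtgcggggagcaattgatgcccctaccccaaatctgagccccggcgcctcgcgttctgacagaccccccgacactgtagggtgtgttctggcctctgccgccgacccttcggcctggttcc
Timp1, chrX:20869966-20870165, plus strand: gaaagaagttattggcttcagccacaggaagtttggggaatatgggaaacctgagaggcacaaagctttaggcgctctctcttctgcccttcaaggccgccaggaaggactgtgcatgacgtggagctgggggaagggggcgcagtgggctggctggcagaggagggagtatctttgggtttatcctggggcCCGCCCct
Reck, chr4:43875330-43875529, plus strand: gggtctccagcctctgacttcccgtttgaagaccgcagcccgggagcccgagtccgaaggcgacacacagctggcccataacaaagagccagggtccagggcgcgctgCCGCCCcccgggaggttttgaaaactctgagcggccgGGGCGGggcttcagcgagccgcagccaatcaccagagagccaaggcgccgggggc
The RefSeq table held a start region for 8 of the 10 genes and none was used for Mmp2 and Mmp16. In windows of 300 bases, searched on both strands, 7 of the 8 first start sites held a GC box, as did 35.91% of 27025 windows of that table, and the first start site of Mmp23 did not. The window of a second Mmp23 start site, chr4:155653241-155653540, held 2. None of the 8 held the AP-1 motif TGANTCA or the letters TATAAA, which stood in 7.93% and 14.16% of windows. These matches describe letters in a window, not binding.

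Compared per kilobase of exon, so that genes of different length can be set side by side, the 10 genes fell into an order. Medians over the 14 libraries were 43.0 normalized CPM per kilobase for Mmp23, 42.6 for Mmp2 and 41.2 for Timp3, then 26.2 for Timp1, 19.997 for Timp2, 11.1 for Mmp14, 7.86 for Mmp15, 4.81 for Mmp11, 2.74 for Reck and 1.96 for Mmp16. The first 3 did not separate, since Mmp23 was above Mmp2 in 5 of 14 libraries and Mmp2 above Timp3 in 7. Nor did Timp1 and Timp2 (9 of 14) or Mmp11 and Reck (8 of 14). Timp2 was above Mmp14 in 13 of 14 libraries, Mmp15 above Mmp11 in 13 and Reck above Mmp16 in 12. With the longest transcript in place of all exons, Timp3 came first, Mmp23 second and Mmp2 next, and Reck and Mmp16 changed places.

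**Figure D4:**
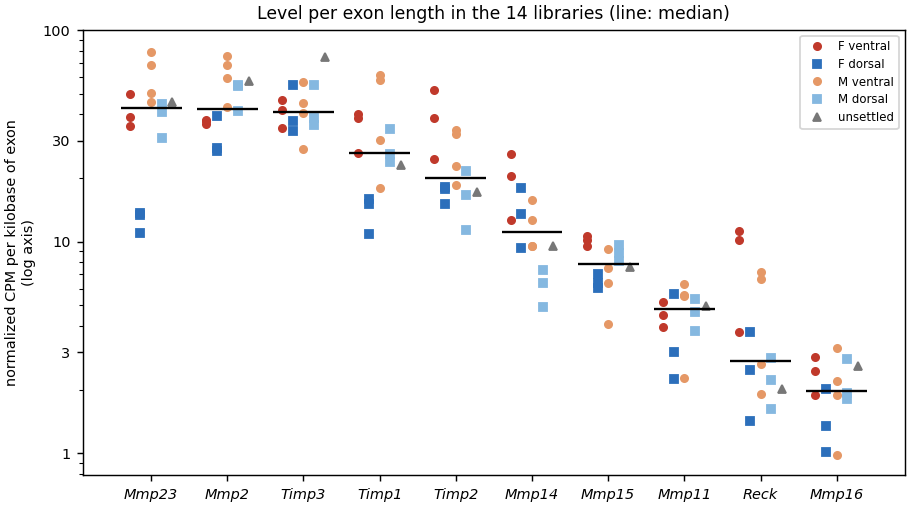
Normalized CPM per kilobase of exon (log axis) of each gene in the 14 libraries, ordered by the median, which is the black line. Mmp23, Mmp2 and Timp3 have medians of 41.2 to 43.0, and the female dorsal libraries of Mmp23 lie at the bottom of its column.

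Summed per kilobase, the 6 proteases reached 115 ± 11.3 (SD, n = 3) in female ventral, 69.2 ± 13.7 (n = 3) in female dorsal, 148 ± 27.8 (n = 4) in male ventral and 111 ± 15.6 (n = 3) in male dorsal libraries. The 4 inhibitors reached 123 ± 29.4, 75.4 ± 13.7, 116 ± 40.7 and 89.9 ± 20.98. Proteases and inhibitors were thus both higher ventrally in the means, and their ratio moved little with region, from 1.06 ± 0.164 in female ventral to 1.10 ± 0.140 in female dorsal and from 0.773 ± 0.184 in male ventral to 0.806 ± 0.124 in male dorsal libraries. The make-up did shift in the female hearts. Timp3 made up 34.1% ± 4.98 of inhibitor RNA per kilobase in female ventral and 55.1% ± 5.22 in female dorsal libraries, without overlap. In the male hearts Timp3 made up 38.02% ± 9.10 ventrally and 47.9% ± 0.595 dorsally. There the groups overlap, since the highest ventral share, 51.5%, exceeds the highest dorsal one, 48.6%. Mmp23 made up 35.9% ± 4.51 of protease RNA in female ventral and 18.6% ± 2.64 in female dorsal libraries, against 41.0% ± 5.12 and 34.9% ± 1.78 in the male ones. The male Mmp23 shares overlap, from 33.7% ventrally and up to 36.7% dorsally. These sums and shares are descriptions and were not tested. They depend on the length used, here that of all exons, which for Timp3 is 8144 bases beside 4722 for its longest transcript.

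Markers of cell types moved with region alongside the 10 genes. In pools 1 to 3, 9 of 10 epicardium markers were called higher ventrally (median change 2.36), beside 14.5% of all genes tested. So were 5 of 8 fibroblast, 5 of 6 macrophage and 5 of 7 lymphatic endothelium rows, and none of these lists held a gene called lower. The lymphatic rows held Ccl21a more than once, called each time. Among them Prox1 (0.18, adjusted p = 0.706) and Reln (adjusted p = 0.0779) were not called. Of 6 smooth muscle and pericyte markers 3 were called lower and 1 higher, 1 of 3 listed erythroid markers was called lower, and of 10 cardiomyocyte markers none was called lower and 1, Ryr2, was called higher (0.65, adjusted p = 0.0256). Fibroblast markers summed to between 8972 and 16346 normalized CPM in female ventral and between 2570 and 4218 in female dorsal libraries. Macrophage markers summed to 206 to 416 and 66.9 to 122, and cardiomyocyte markers to 22241 to 32407 and 31830 to 46162. Of the defining epicardium markers none was near the floor, Wt1 being at least 26.4 and Upk3b at least 90.2 in any settled library. In pools 4 to 7 no gene of these lists was called.

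With the mean level of the epicardium markers as a covariate, none of the 10 genes was called in pools 1 to 3, in pools 4 to 7 or over all pools, and the whole table had 28 calls in pools 1 to 3 and 0 over all pools. In the difference between the series Mmp15 was called with it (-1.46, adjusted p = 0.0221). In pools 1 to 3 the marker levels of the ventral and dorsal libraries do not overlap, so region and marker level cannot be told apart there. The changes under that covariate in pools 1 to 3 were 1.57 (SE 0.538, adjusted p = 0.414) for Mmp23, 0.91 (SE 0.735) for Timp1, 0.25 (SE 0.665) for Timp2 and 0.19 (SE 1.22) for Reck. In pools 4 to 7, where marker levels of the regions overlap, the change of Mmp14 went from 0.90 to 0.67 (SE 0.168, adjusted p = 0.224), that of Mmp23 from 0.62 to 0.38 (SE 0.153, adjusted p = 0.320) and that of Timp2 from 0.70 to 0.36 (SE 0.152, adjusted p = 0.339), none being called with or without the covariate. With cardiomyocyte markers as the covariate 4 of the 10 stayed called in pools 1 to 3, Mmp23 (1.47), Timp1 (1.19), Timp2 (0.94) and Mmp15 (0.72), and over all pools Mmp23 alone (0.90, adjusted p = 0.0491).

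**Figure D5:**
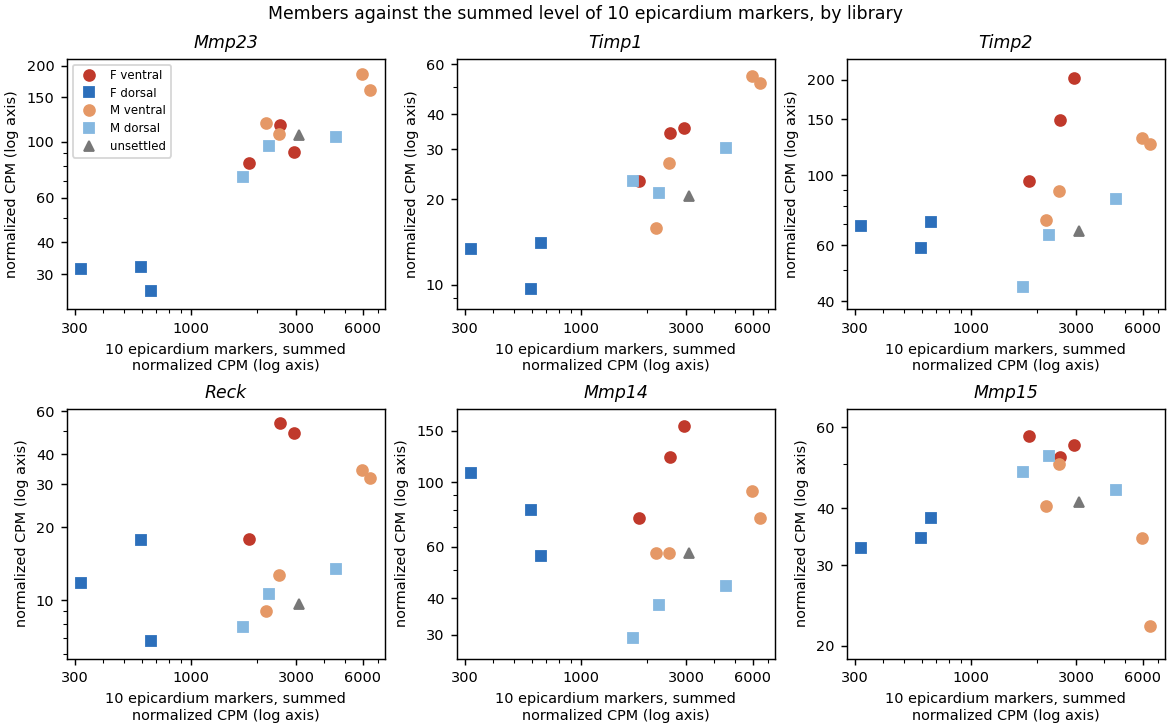
Normalized CPM of 6 of the genes against the summed normalized CPM of 10 epicardium markers, 1 point per library (both axes logarithmic). Female dorsal libraries have the lowest marker sums (321 to 664). Mmp23 and Timp1 are lowest there, Mmp14 is lowest in male dorsal libraries, and Mmp15 is lowest in the male ventral library with the highest marker sum (6482).

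Genes that act with the 10 were read from lists. Of 8 matrix substrates 7 were called higher ventrally in pools 1 to 3 and none lower, beside 14.5% of all genes tested called higher. Over all pools 5 of the 8 were called higher, beside 9.8%. Type I and III collagen led in size, with Col1a1 at 5434 ± 1678 normalized CPM ventrally and 970.4 ± 255 dorsally (SD, n = 3 each; change 2.46, SE 0.302, adjusted p = 0.000823), Col1a2 (2.79, SE 0.342, adjusted p = 0.000830) and Col3a1 (2.35, SE 0.327, adjusted p = 0.00143). Col4a2, a chain of basement membrane collagen, changed by 1.44 (SE 0.121, adjusted p = 0.000304) and was the 1 substrate whose change differed between the series (-1.23, SE 0.303, adjusted p = 0.0430). Among 11 listed genes of activation, docking and clearance, 6 were called higher and 1 lower in pools 1 to 3, beside 27.8% of all genes tested called in either direction. Over all pools 2 of the 11 were called higher and 1 lower, beside 18.9%. Those named are the endocytic receptors Lrp1 (1.79, SE 0.217, adjusted p = 0.000810) and Mrc2 (1.60, SE 0.350, adjusted p = 0.00941), which clear proteases, inhibitors or collagen fragments, and the proprotein convertases Pcsk6 (2.10, SE 0.427, adjusted p = 0.00678) and Furin (0.91, SE 0.220, adjusted p = 0.0147), which cut off propeptides. In male hearts (n = 4 ventral, 3 dorsal) Lrp1 read 60.8 ± 13.8 normalized CPM ventrally and 29.1 ± 3.44 dorsally, and Mrc2 18.4 ± 4.66 and 6.94 ± 3.54. Male Pcsk6 read 6.36 ± 3.54 ventrally and 6.19 ± 3.99 dorsally, and Furin 27.7 ± 6.94 and 24.8 ± 5.18. The gene called lower in pools 1 to 3, named after its value was seen, was Cav1 (-0.81, SE 0.201, adjusted p = 0.0165), which encodes a caveola protein.

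Of 17 further metalloproteinase genes 6 were listed and 4 tested in pools 1 to 3. There 1 was called, a share near the 27.8% of all genes. It was Mmp17, a membrane-type enzyme, higher at 6.56 ± 2.04 normalized CPM ventrally and 1.71 ± 0.710 dorsally (change 1.47, SE 0.346, adjusted p = 0.0128). In male hearts Mmp17 read 2.60 ± 1.80 normalized CPM ventrally (n = 4) and 3.02 ± 0.899 dorsally (n = 3). Over all pools 1 of 6 was called, Mmp19 (1.09, SE 0.282, adjusted p = 0.0178), beside 18.9% of all genes. Of 12 other matrix proteases 4 were called in pools 1 to 3, a share near the 27.8% of all genes. Those called higher were the procollagen C-proteinase Bmp1 (1.34, SE 0.194, adjusted p = 0.00170), Adam12 (1.09, SE 0.264, adjusted p = 0.0149) and the cathepsin Ctsl (0.96, SE 0.290, adjusted p = 0.0341), and Adam9 was called lower (-0.70, SE 0.176, adjusted p = 0.0175). Of 8 other protease inhibitors 2 were called, both higher ventrally, a share below that 27.8%, with a median change of 0.17 over the list. They were the cysteine protease inhibitor Cst3 (0.65, SE 0.196, adjusted p = 0.0345) and Serpinf1 (0.97, SE 0.302, adjusted p = 0.0390). No gene of these lists was called in pools 4 to 7.

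Between the sexes, or equally between the series of pools, 3 of the 10 genes were called, beside 10.9% of the 15772 genes, 4.4% being higher and 6.54% lower in male hearts. Mmp2 was higher in pools 4 to 7 by 0.70 (SE 0.136, adjusted p = 0.00401), with every male library above every female one, and Mmp23 by 1.02 (SE 0.196, adjusted p = 0.00363). Mmp14 was lower by 0.87 (change -0.87, SE 0.197, adjusted p = 0.0101). Timp2, the remaining partner of the activation route, was not called (-0.30, adjusted p = 0.372). The Mmp14 to Mmp2 ratio per kilobase was 0.533 ± 0.179 and 0.431 ± 0.0724 in female ventral and dorsal libraries against 0.197 ± 0.0470 and 0.123 ± 0.00924 in male ones. All exons of Mmp14 span 5960 bases and its longest transcript 3238, so the ratio depends on the length used, alike in every library. The calls of Mmp2 and Mmp14 held under all 12 alternative settings and without each library. That of Mmp23 was lost with the epicardium marker covariate (0.46, adjusted p = 0.156), and 7 of 10 epicardium markers were called higher in pools 4 to 7 (median change 1.34).

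Region by region, male libraries all lay above female ones in ventral tissue for 1 of the 10 genes (Mmp2), beside 9.98% of genes, and all below for 1 (Mmp15), beside 12.4%. In dorsal tissue they lay above for 4, Mmp2, Mmp15, Mmp23 and Timp1, beside 13.2%, and below for 1, Mmp14, beside 12.7%. Mmp15 thus stood at opposite sides in the 2 regions, with means of 36.7 ± 11.7 in male and 54.6 ± 2.87 in female ventral libraries and of 47.8 ± 4.10 and 34.97 ± 2.73 in dorsal ones. Timp1 was 2.02 times and Mmp23 3.08 times as high in male as in female dorsal tissue in the means. Over both regions Timp1, Timp2, Timp3, Reck, Mmp11, Mmp15 and Mmp16 were not called, with changes from -0.53 (Reck) to 0.51 (Timp1). Timp1 was called without the male ventral library of pool 5 (0.71, adjusted p = 0.0394). With the epicardium marker covariate Timp2 (adjusted p = 0.0180) and Reck (0.0220) were called lower in male hearts.

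Genes with the most similar profile were named by Pearson's r of log2(normalized CPM + 1) over the 14 libraries, among 15870 genes. For Mmp23 they were Col1a1 (r = 0.976) and Fmod (0.967), which encode type I collagen and the collagen-binding proteoglycan fibromodulin. For Reck they were Ski (0.954) and Tbx18 (0.946), for Timp1 Lama3 (0.942) and AU021092 (0.940), for Timp2 Dipk2a (0.942) and Crls1 (0.934) and for Mmp14 Nfix (0.938) and Man1a (0.920). Mmp2 was most like Tcn2 (0.926) and Efemp2 (0.918), Mmp15 like Gng11 (0.924) and Tspan9 (0.880), and Mmp16 like Siae (0.915) and Ppic (0.910). Timp3 (Tgfb2, 0.889) and Mmp11 (Gpc2, 0.882) had the lowest leading values. These values describe likeness across libraries that share pools, depth and tissue make-up.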

How the data were processed

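Dissected epicardium and subepicardium of fetal hearts was pooled by pairs of hearts, and poly(A) RNA was sequenced as single reads of 60 bases. According to the study's methods, the authors removed adapters with Cutadapt, estimated gene levels with RSEM against the GRCm38 transcriptome (the submitters' processing notes give version 1.3.1 and the methods name a different one), and used limma for normalization after a filter of 1 CPM in 3 samples. The table deposited by the authors holds a library-scaled signal in normalized CPM, from which 100% of values could be turned back into whole reads (tolerance 0.02 reads), so edgeR 4.0.16 was run on those reads as an alternative.

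Groups were compared by linear models in limma 3.58.1 (R 4.3.3), with lmFit and trended eBayes. Values were log2-transformed after adding a pseudocount of 1, for genes at 1 or more in at least 3 libraries of the fit, with Benjamini-Hochberg adjustment over all genes tested and a threshold of 0.05. The all-pool fit had pool series as a covariate, the comparison of sexes had region, and the interaction used 4 group means. The members and gene lists were chosen with earlier results of these data known. Named genes were all 10 members, up to 4 called genes of each partner list by smallest p, and the 2 most similar genes of each member. Positions, lengths and shared windows came from GENCODE M21, start regions from RefSeq (GRCm38.p6). Scripts were tested on simulated data.

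Replicate numbers stand in the titles, and the same-numbered libraries of both regions shared deviations from group means (correlations 0.169 to 0.427 over 15772 genes in 6 of 6 pairs), so the number was taken to pair them. The p-values in the text come from fits without the number, unless the replicate block is named beside them. In that alternative the number was a fixed block in the regional fits and a random effect in the comparison of sexes. Fits without the number treat each library as independent, so their p-values measure the spread between libraries. In the comparison of sexes the ventral and dorsal libraries of a pool thus counted separately. With the random effect 1684 genes were called there, beside 1726 without it.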

Additional observations from a re-analysis of the deposited data

How the results depend on the processing

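Each result was recomputed under 12 other settings and without each library; among the counts 184 recomputed values stayed within 1.5 times and 40 moved, and among single genes 1887 kept direction and side of the threshold, 149 lost a call, 20 gained one and 88 turned. The cause of these changes was not tested. Of counts over all genes, pools 1 to 3 gave 2051 with the cardiomyocyte and 28 with the epicardium covariate. Pools 4 to 7 gave 1 without the eBayes trend, 1 with the GC and length trend removed, 76 with the replicate block and 27 with block and trend removal. All pools gave 1806 with block and trend removal, 296 with the cardiomyocyte and 0 with the epicardium covariate. The difference gave 804 with the block, 769 with block and trend removal and 914 with the cardiomyocyte covariate, and male minus female gave 1006 with the epicardium covariate. Of the 10 members, 0 were called with the epicardium covariate in pools 1 to 3 and over all pools, 1 with the block in pools 4 to 7, 3 with block and trend removal and 1 with the cardiomyocyte covariate over all pools. In the difference 1 was called with the block, 1 with block and trend removal, 2 with the cardiomyocyte and 1 with the epicardium covariate. The block, besides Mmp14 in pools 4 to 7, Mmp23 in the difference and Timp1 over all pools (0.73, adjusted p = 0.0639), changed no other member's call.

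Leaving out 1 library gave 2158 to 3845 calls in pools 1 to 3 (fewest without female ventral replicate 2), 0 to 12 in pools 4 to 7 (most without male dorsal replicate 6), 1429 to 3646 over all pools (fewest without female dorsal replicate 2) and 260 to 447 in the difference (fewest without female dorsal replicate 2). Calls among the members ran from 2 to 5 over all pools and from 0 to 1 in the difference, and from 4 to 7 in pools 1 to 3.

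Signs turned mostly for changes near 0 (log2). Timp3 in pools 1 to 3 became 0.0669 with quantile normalization and 0.61 with the epicardium covariate. In pools 4 to 7 Mmp11 became -0.0895 with quantile normalization, -0.0483 with trend removal, -0.0619 with the block, -0.12 with both, -0.26 with the cardiomyocyte and -0.0684 with the epicardium covariate. The cardiomyocyte covariate gave 0.00383 for Mmp15, -0.24 for Timp1, -0.0137 for Reck, -0.00670 for Serpinf1 and -0.41 for Ctsl there, and the epicardium covariate -0.0437 for Timp1 and -0.16 for Ctsl. Quantile normalization gave 0.11 for Timp3 and -0.00471 for Pcsk6, and trend removal -0.0743 for Cst3. Adam12 became -0.0919 with quantile normalization, -0.0386 with edgeR, -0.0255 with trend removal, -0.0360 with the block, -0.0793 with both, -0.19 with the cardiomyocyte and -0.0858 with the epicardium covariate. Over all pools Mmp15 became -0.10 with trend removal, Timp3 0.0874 with quantile normalization, Mmp16 -0.0870 with the cardiomyocyte and -0.30 with the epicardium covariate, which also gave -0.43 for Mmp17 and -0.15 for Ctsl. In the difference Mmp2 became -0.0525 with the cardiomyocyte covariate, and the epicardium covariate gave 0.0531 for Timp1, 0.33 for Timp2, 0.34 for Timp3 and 0.44 for Reck. Timp3 there became 0.0131 with median of ratios, 0.0524 with quantile normalization, 0.0123 with edgeR and 0.0177 with trend removal. For male minus female the epicardium covariate gave -0.44 for Mmp16, -0.27 for Timp1 and -0.21 for Timp3.

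Without 1 library Timp3 ranged from -0.16 to 0.20 in pools 1 to 3, -0.19 to 0.15 in pools 4 to 7, -0.10 to 0.0720 over all pools, -0.24 to 0.16 in the difference and -0.0502 to 0.13 for male minus female. In pools 4 to 7 Mmp11 ranged from -0.12 to 0.33, Mmp16 from -0.39 to 0.14, Mmp17 from -0.61 to 0.16, Cst3 from -0.0329 to 0.0653, Furin from -0.00603 to 0.30, Pcsk6 from -0.46 to 0.50 and Adam12 from -0.17 to 0.31. Mmp15 ranged from -0.0114 to 0.21 over all pools and from -0.21 to 0.0201 for male minus female, Mmp16 from -0.0289 to 0.28 for male minus female, and Mmp2 from -0.16 to 0.17 in the difference. Each member had at least 116 reads in every library, and each group held 3 or 4 libraries; what each contributed to the precision was not tested.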

Other observations

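The male library of pool 7 whose labels disagree on the region had 611 normalized CPM of Timp3, the highest of the 14 libraries, and Timp3 made up 64.0% of its inhibitor RNA per kilobase, against 28.9% to 61.0% in the 13 others. It had 107 normalized CPM of Mmp23, 57.2 of Mmp14, 194 of Mmp2, 66.7 of Timp2, 20.5 of Timp1 and 9.64 of Reck. These values describe 1 library and were compared with no group.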
